A study of Mus musculus with 6 samples.

Results

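The high mobility group (HMG) proteins are small, abundant chromatin proteins, and transcripts of 9 genes that encode them (Hmga1, Hmga2, Hmgb1, Hmgb2, Hmgb3, Hmgn1, Hmgn2, Hmgn3 and Hmgn5) are described here in mouse 4-cell embryos. They were picked by gene symbol from 55335 genes in the deposited tables, and all 9 were among the 11893 genes that reached 1 FPKM (fragments scaled by transcript length and by library size) in at least 3 of 6 libraries. The list was drawn up with earlier results of the same DRB against Con comparison known, among them a lower Hmga2 level, so the values of these genes in that comparison are a description and support nothing further. DRB is a nucleoside analog that inhibits the kinase of the elongation factor P-TEFb and so holds RNA polymerase II near the promoter. Embryos of the DRB group were placed in 20 μM of the inhibitor 6 h after fertilization, kept in it for 20 h, washed, and cultured in KSOM, an embryo culture medium, for 26 h more before collection at the 4-cell stage. Embryos of the Con group were collected at the same stage, and the labels do not say whether they received a vehicle. Neither the strain nor the number of embryos in a library is given in the sources used here. There were 3 libraries per group, all made from polyadenylated RNA by the Smart-Seq2 method. No source says that they came from separate matings or cultures. Each p-value therefore sets a group difference only against the spread among these libraries, part or all of which may be technical.

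HMG proteins fall into 3 classes that share little beyond their size and their mobility on chromatin. HMGA proteins bind the minor groove of AT-rich DNA through AT hooks, HMGB proteins bend DNA with their HMG boxes, and HMGN proteins bind nucleosomes directly and compete there with linker histone H1. In mouse development Hmga2 is known as a gene of embryonic and stem cells whose loss gives the pygmy mouse, and its messenger RNA is a classic target of the let-7 microRNAs.

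The let-7 seed matches of Hmga2 are shown because they set it apart from the other members in sequence. From the mature mouse let-7 microRNAs in RefSeq (GRCm38.p6) 10 were kept, of which 9 share the same seed at bases 2 to 8. Names marked as the 3′ arm, repeated names and any entry on 1 chromosome had been left out, so 10 is not the full RefSeq number. The DNA letters that pair with this seed, CTACCTC, were searched on the transcript strand of the 3′ untranslated region (UTR) of the longest coding transcript of each gene in GENCODE M21 (GRCm38). Hmga2 held 4 matches in 3014 bases and Hmga1 held 1 in 1178 bases, while the other 7 members held 0. Of 20532 UTRs searched, 9.03% held at least 1 match and 12, Hmga2 included, held at least 4. The median length of these UTRs was 967 bases, well below that of Hmga2, and the counts were not adjusted for length. Below, capitals mark the seed in the microRNA (chr13:48538239-48538260, minus strand) and the match in the messages. Hmga2 lies on the minus strand and Hmga1 on the plus strand.
mmu-let-7a-5p: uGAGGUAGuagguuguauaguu
Hmga2 site 1, chr10:120364224-120364246: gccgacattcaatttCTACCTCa
Hmga2 site 2, chr10:120362987-120363009: ccccactcctcaataCTACCTCt
Hmga2 site 3, chr10:120362549-120362571: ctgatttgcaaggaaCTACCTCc
Hmga2 site 4, chr10:120361691-120361713: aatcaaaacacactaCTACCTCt
Hmga1 site, chr17:27563277-27563299: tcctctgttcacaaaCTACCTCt
The first Hmga2 match began 58 bases after the stop codon and the last 2591 bases after it. A match is a run of letters and not a measured site. Only exact copies of CTACCTC were counted, so let-7 sites of other kinds would be missed. The microRNA itself was not analysed here, since a library of polyadenylated RNA does not capture mature microRNAs.

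Promoters are shown for 4 members whose letters have a feature that few promoters share, each from 250 bases before to 50 bases after the RefSeq start (GRCm38.p6), written 5′ to 3′ on the strand of the gene. The table held 8 of the 9 members; Hmgn3 was the other. The letters CCAAT, or ATTGG for the same box on the other strand, occurred 3 times in Hmgb1, 4 times in Hmgb2 and 3 times in Hmgb3. Of 32851 promoters of this length, 37.4% held at least 1 such match and 3.37% held at least 3. CCAAT was 1 of 4 motifs counted on both strands, beside the GC box (GGGCGG), the TATA box (TATAAA) and the E-box (CACGTG). Hmgn1 held 5 GC boxes, and Hmga1 and another promoter of Hmgb1 held 4. At least 3 were held by 10.7% of promoters, and the share with 4 or more was not counted. Capitals mark CCAAT in the 3 HMGB promoters, at chr5:149053008-149053307 on the minus strand, chr8:57511593-57511892 on the plus strand and chrX:71555667-71555966 on the plus strand.
Hmgb1: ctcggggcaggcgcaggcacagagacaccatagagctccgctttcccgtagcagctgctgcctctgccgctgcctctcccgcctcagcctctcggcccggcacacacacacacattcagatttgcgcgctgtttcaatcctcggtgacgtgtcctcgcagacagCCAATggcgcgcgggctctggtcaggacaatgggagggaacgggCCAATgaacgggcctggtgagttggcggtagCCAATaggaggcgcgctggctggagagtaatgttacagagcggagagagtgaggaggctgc
Hmgb2: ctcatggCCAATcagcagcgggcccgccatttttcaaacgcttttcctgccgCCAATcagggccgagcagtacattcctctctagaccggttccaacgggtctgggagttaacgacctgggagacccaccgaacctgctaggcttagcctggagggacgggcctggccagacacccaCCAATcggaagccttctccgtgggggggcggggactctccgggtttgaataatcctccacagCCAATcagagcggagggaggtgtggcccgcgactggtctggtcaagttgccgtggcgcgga
Hmgb3: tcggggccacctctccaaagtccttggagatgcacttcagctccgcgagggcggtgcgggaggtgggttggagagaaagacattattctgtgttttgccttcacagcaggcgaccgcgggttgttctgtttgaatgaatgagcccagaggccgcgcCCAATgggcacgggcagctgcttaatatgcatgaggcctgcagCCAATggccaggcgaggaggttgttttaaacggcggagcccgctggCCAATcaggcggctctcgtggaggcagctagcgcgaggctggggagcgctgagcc
Hmgn1 and Hmgn5 held 2 CCAAT matches each and Hmgn2 held 1, while Hmga1, Hmga2 and a second promoter listed for Hmgb1 held 0. The Hmga2 promoter, at chr10:120476420-120476719 on the minus strand, is shown for its pyrimidine-rich stretch. C or T made up 80.7% of its first 150 bases, in capitals here, and 0.113% of all promoters were as high. This stretch was noticed after the sequence had been read.
Hmga2: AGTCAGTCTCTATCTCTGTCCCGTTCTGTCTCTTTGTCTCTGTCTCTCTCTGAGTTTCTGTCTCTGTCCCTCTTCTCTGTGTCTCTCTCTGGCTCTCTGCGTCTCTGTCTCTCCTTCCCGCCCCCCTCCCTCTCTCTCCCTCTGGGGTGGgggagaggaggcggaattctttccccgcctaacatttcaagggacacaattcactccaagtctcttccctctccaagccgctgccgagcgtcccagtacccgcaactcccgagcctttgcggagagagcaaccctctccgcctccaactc

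The libraries were of similar depth, with about 22000000 to 24600000 fragments in the DRB group and about 22400000 to 23800000 in the Con group, as estimated from the steps in low FPKM values. Mitochondrial transcripts took 25.7%, 23.9% and 26.4% of the summed FPKM in DRB replicates 1, 2 and 3, against 12.2%, 18.7% and 20.0% in Con replicates 1, 2 and 3. The groups did not overlap in this share, and since FPKM is relative to the total, its part in the results below was not tested beyond a fit in which those genes were left out and every library was then scaled to a common total. Con replicate 1 stood apart in the number of genes above 0, with 22102 where the other 5 libraries had 18485 to 19895. Of 12 early embryo and oocyte markers, 11 exceeded 1 FPKM in every library, with summed levels of 13761 to 24983 FPKM in the DRB group and 15057 to 22604 FPKM in the Con group, nearly all of it from Dppa3. The median log2 fold change of these 12 markers was −0.33, with 3 above 0, among them Dppa3 at 0.09. Markers of cumulus and granulosa cells summed to 144 to 276 FPKM in the DRB group and 213 to 387 FPKM in the Con group. Most of it came from Gja1. Amhr2, the other marker of this list that was tested, had 19.84 to 28.23 FPKM in the DRB group and 17.87 to 23.37 FPKM in the Con group. Tnfaip6 and Inhba did not exceed 0.05 FPKM in any library, and Amh, Fshr, Has2, Ptx3 and Cyp19a1 were listed at 0 in all libraries. Sperm markers summed to 12.5 to 24.2 FPKM and 12.7 to 22.7 FPKM in the DRB and Con groups, and blood markers to 47.0 to 87.3 FPKM and 74.3 to 114 FPKM. None of the markers tested in these lists was called between groups by limma, and 1 of them, Padi6 of the embryo list, had an unadjusted p below 0.05. In whole embryos fewer cells and less RNA per cell cannot be told apart.

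Hmga2 fell and Hmgn3 rose in DRB embryos, and the other 7 members, which include the most abundant ones, did not pass the test. Hmga2 averaged 4.32 ± 0.42 FPKM in the DRB group and 23.2 ± 11 FPKM in the Con group (SD, n = 3 each), a level 5.37-fold higher in Con. Hmgn3 averaged 54.7 ± 16.0 FPKM in the DRB group and 8.21 ± 3.12 FPKM in the Con group (SD, n = 3 each), 6.66-fold higher in DRB. The test was limma on log2(FPKM + 1) over all 11893 genes, with Benjamini-Hochberg adjustment and a call below 0.05. It called 2 of the 9 members, 1 higher and 1 lower in DRB, where 2.48% of all genes tested were called, 1.53% higher and 0.95% lower. The libraries of the groups did not overlap for the same 2 members, a pattern that 23.8% of all genes tested showed, 9.85% with DRB higher and 13.9% with DRB lower. The median log2 fold change, DRB over Con, was 0.26 over the 9 members and −0.09 over all genes tested, with 5 members above 0 and 4 below.

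**Figure D1:**
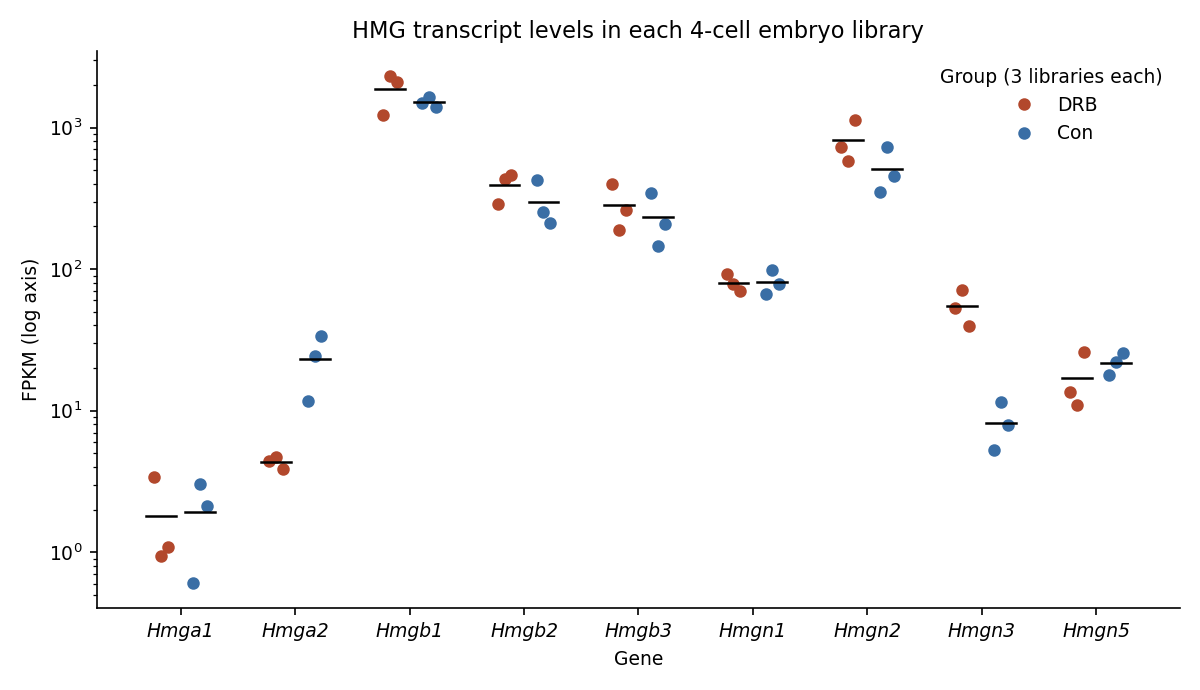
FPKM of the 9 HMG genes (log axis) in the 3 DRB libraries, on the left of each pair, and the 3 Con libraries, on the right; each point is a library and each bar the group mean. The Hmga2 points lie between 3.86 and 4.68 FPKM in DRB and between 11.71 and 33.65 FPKM in Con, the Hmgn3 points between 39.81 and 71.65 FPKM in DRB and between 5.27 and 11.48 FPKM in Con, and the points of the other 7 genes overlap.

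Among the HMGA genes, Hmga2 (chr10:120361275-120476469, minus strand, ENSMUSG00000056758.14) had 4.43, 4.68 and 3.86 FPKM in DRB replicates 1, 2 and 3, against 11.71, 24.31 and 33.65 FPKM in Con replicates 1, 2 and 3. All 3 DRB values lay in a narrow band below the lowest Con value, while the Con values spread over a wide range, with Con replicate 1 the lowest. These levels correspond to about 370, 380 and 350 fragments in the DRB libraries and about 970, 2100 and 2700 in the Con libraries, so counting error alone, which leaves out amplification, is small beside the spread of the Con group. The log2 fold change on the log2(FPKM + 1) scale was −2.07 ± 0.43 (moderated SE; limma, Benjamini-Hochberg adjusted p = 0.0323), the 68th lowest of the 11893 genes tested. The call was lost when DRB replicate 1, 2 or 3 was left out (adjusted p = 0.0859, 0.0691 and 0.0638 by limma) and when Con replicate 2 or 3 was left out (0.116 and 0.115), with a log2 fold change of −2.12 to −1.76 in those 5 fits. Without Con replicate 1 it was −2.48 with a limma adjusted p of 0.0228, and with the mitochondrial genes left out and every library then scaled to a common total it was −2.00 with a limma adjusted p of 0.0585. Scaling to a common total with those genes kept gave −2.06 and a limma adjusted p of 0.0367.

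Smart-Seq2 libraries do not mark the strand, so genes that overlap on the other strand can share fragments. The antisense gene 1700006J14Rik, which overlaps Hmga2, had 5.17, 3.50 and 1.98 FPKM in the DRB group and 1.99, 2.66 and 1.80 FPKM in the Con group. These values overlapped between the groups, and they lay well below those of Hmga2 in each Con library but above Hmga2 in DRB replicate 1. Mir763, which lies within Hmga2 on the same strand, was listed at 0, 4.11 and 0 FPKM in the DRB group and at 10.16, 0 and 4.66 FPKM in the Con group.

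Hmga1 (chr17:27556497-27563674, plus strand, ENSMUSG00000046711.16), the other AT-hook gene, was the least abundant member in both groups. It had 3.40, 0.94 and 1.09 FPKM in the DRB group and 0.61, 3.01 and 2.12 FPKM in the Con group. The groups overlapped throughout, with the highest value in DRB replicate 1 and the lowest in Con replicate 1. At about 25 to 140 fragments a library these were the thinnest data among the members, and the log2 fold change was −0.06 ± 0.50 (limma adjusted p = 0.967). Hmga1 lies across AI413582 on the opposite strand, which had 10.13, 2.75 and 8.67 FPKM in the DRB group and 6.74, 9.39 and 7.15 FPKM in the Con group. AI413582 was thus the more abundant of the pair in every library. Within the HMGA pair, Hmga2 supplied 56.6%, 83.3% and 78.0% of the FPKM in DRB replicates 1, 2 and 3 and 95.0%, 89.0% and 94.1% in Con replicates 1, 2 and 3.

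The HMGB genes were the largest class in summed FPKM, and none of them passed the test. Hmgb1 (chr5:149046702-149184489, minus strand, ENSMUSG00000066551.12) encodes a DNA-bending protein that also acts outside the cell as an alarm signal. It had 1226.68, 2310.45 and 2103.7 FPKM in the DRB group and 1500.22, 1640.72 and 1404.54 FPKM in the Con group. It was the most abundant member in every library, with DRB replicate 1 below all Con libraries and the other DRB libraries above them. Its log2 fold change was 0.26 ± 0.29 (limma adjusted p = 0.696). Uspl1, on the opposite strand across Hmgb1, had 17.73 to 47.16 FPKM in the DRB group and 16.75 to 23.69 FPKM in the Con group, far below Hmgb1.

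Hmgb2 (chr8:57511907-57515999, plus strand, ENSMUSG00000054717.7) encodes an HMG-box protein known from proliferating cells and a part of the SET complex. Its level was 287.39, 435.15 and 460.12 FPKM in the DRB group and 428.79, 252.07 and 210.1 FPKM in the Con group. Con replicate 1 lay with the higher DRB libraries, and DRB replicate 1 lay with the lower Con libraries. The log2 fold change was 0.45 ± 0.32 (limma adjusted p = 0.511). Hmgb3 (chrX:71555918-71560676, plus strand, ENSMUSG00000015217.11), a member known from embryos and blood progenitors, had 396.46, 189.48 and 262.1 FPKM in the DRB group and 346.98, 145.8 and 207.91 FPKM in the Con group. In both groups replicate 1 was the highest and replicate 2 the lowest, and the ranges overlapped. The log2 fold change was 0.30 ± 0.37 (limma adjusted p = 0.733). The ratio of Hmgb3 to Hmgb2 was 1.38, 0.435 and 0.570 in the DRB libraries and 0.809, 0.578 and 0.990 in the Con libraries, so that Hmgb3 exceeded Hmgb2 in DRB replicate 1 alone.

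Among the HMGN genes, Hmgn3 (chr9:83109948-83146685, minus strand, ENSMUSG00000066456.14) encodes a nucleosome-binding protein known in the mouse from the eye, brain and pancreatic islets. It had 52.67, 71.65 and 39.81 FPKM in DRB replicates 1, 2 and 3, against 5.27, 11.48 and 7.88 FPKM in Con replicates 1, 2 and 3. Every DRB value was above every Con value, with a wide gap between the lowest DRB and the highest Con library. These levels correspond to about 1500, 2000 and 1200 fragments in the DRB libraries and about 150, 330 and 210 in the Con libraries. The log2 fold change was 2.61 ± 0.37 (limma adjusted p = 0.00647), the 98th highest of the 11893 genes tested. Hmgn3 stayed called when any 1 of the 6 libraries was left out, with a log2 fold change of 2.36 to 2.86 and limma adjusted p-values of 0.00914 to 0.0466. Of the genes that overlap Hmgn3 in the annotation, none exceeded 0.02 FPKM in any library.

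Hmgn2 (chr4:133964738-133968650, minus strand, ENSMUSG00000003038.15), a widely expressed member, was the most abundant of the class. Its level was 723.97, 577.4 and 1139 FPKM in the DRB group and 348.38, 728.34 and 458.1 FPKM in the Con group. The highest Con value exceeded 2 of the 3 DRB values, so the groups overlapped, and the log2 fold change of 0.68 ± 0.34 did not pass the test (limma adjusted p = 0.322). Hmgn1 (chr16:96120618-96127729, minus strand, ENSMUSG00000040681.16), which is also widely expressed, had 92.5, 78.72 and 69.44 FPKM in the DRB group and 66.35, 98.01 and 78.84 FPKM in the Con group. Its libraries ranged about the same level in both groups, with a log2 fold change of −0.01 ± 0.28 (limma adjusted p = 0.992). Hmgn5 (chrX:109004534-109013404, minus strand, ENSMUSG00000031245.8), which encodes a member with a long acidic tail, had 13.54, 11.03 and 26.08 FPKM in the DRB group and 17.97, 21.89 and 25.53 FPKM in the Con group. DRB replicate 3 was the highest of all 6 and the other DRB libraries the lowest, and the log2 fold change was −0.43 ± 0.38 (limma adjusted p = 0.614).

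**Figure D2:**
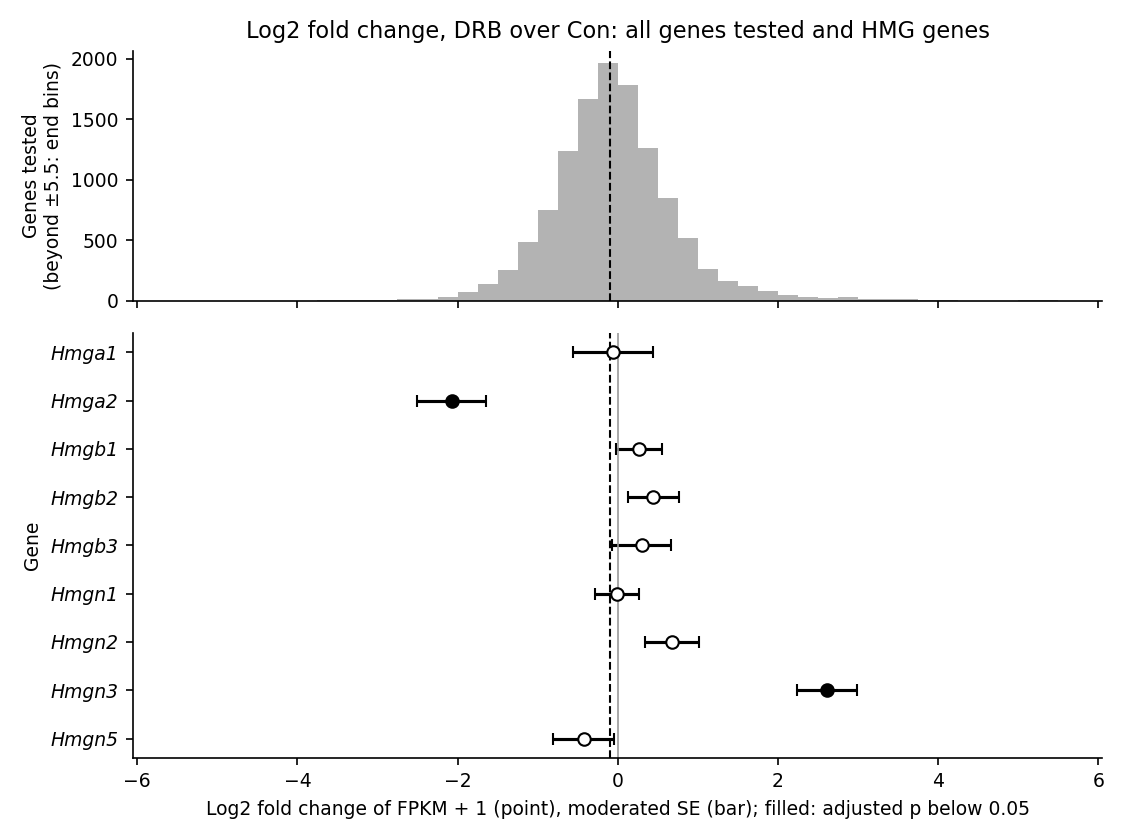
Log2 fold change of FPKM + 1, DRB over Con, for all 11893 genes tested (upper panel, histogram) and for the 9 HMG genes (lower panel, points with moderated SE bars; filled where the adjusted p was below 0.05; dashed line, median of all genes at −0.09). Hmgn3 at 2.61 and Hmga2 at −2.07 stand at the ends, and the other 7 points lie between −0.43 and 0.68.

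The order of the levels was alike at the top in both groups. In the DRB group the mean FPKM was 1880 for Hmgb1, 813 for Hmgn2, 394 for Hmgb2, 283 for Hmgb3, 80.2 for Hmgn1, 54.7 for Hmgn3, 16.9 for Hmgn5, 4.32 for Hmga2 and 1.81 for Hmga1. Neighbours in this order overlapped in their ranges for Hmgb2 and Hmgb3 and for Hmgn1 and Hmgn3. In the Con group it was 1515 for Hmgb1, 512 for Hmgn2, 297 for Hmgb2, 234 for Hmgb3, 81.1 for Hmgn1, 23.2 for Hmga2, 21.8 for Hmgn5, 8.21 for Hmgn3 and 1.91 for Hmga1. Here the overlapping neighbours were Hmgn2 and Hmgb2, Hmgb2 and Hmgb3, and Hmga2 and Hmgn5. Hmga2 and Hmgn3 thus exchanged places, with Hmgn3 at rank 6 and Hmga2 at rank 8 in the DRB group and Hmga2 at rank 6 and Hmgn3 at rank 8 in the Con group. Rows named as processed pseudogenes could take reads from their parent genes. The 13 such rows of Hmgb1 summed to 1.11% to 2.14% of its level, with Hmgb1-ps2 the highest at 13.37, 15.65 and 17.21 FPKM in the DRB group and 11.39, 9.13 and 13.39 FPKM in the Con group. Hmgb1-ps1, Hmgb1-ps3, Hmgb1-ps4, Hmgb1-ps5, Hmgb1-ps6 and Hmgb1-ps7 also reached 1 FPKM in some library, as did Hmgn2-ps1, which came to 0.208% to 0.651% of Hmgn2. Adding these rows to their parents left the order of the members as it was in both groups, and of the 7 pseudogene rows tested none was called by limma and none had an unadjusted p below 0.05.

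Ratios within a library do not depend on the library's total. The ratio of Hmgn3 to Hmga2 was 11.9, 15.3 and 10.3 in DRB replicates 1, 2 and 3 and 0.450, 0.472 and 0.234 in Con replicates 1, 2 and 3. Hmgn3 was thus the more abundant of the pair in every DRB library and Hmga2 in every Con library. The pair is made of the 2 members called in opposite directions, so this ratio restates those calls and adds no support to them. Hmgn3 supplied 5.97%, 9.70% and 3.12% of the HMGN class in the DRB libraries and 1.2%, 1.34% and 1.38% in the Con libraries. Together the 9 genes took 0.271%, 0.309% and 0.326% of the summed FPKM in the DRB libraries and 0.235%, 0.249% and 0.223% in the Con libraries. Both groups of 3 were thus apart in this share, by a margin smaller than their own ranges. Unlike a ratio of 2 genes, this share depends on what else is in the total. With mitochondrial genes left out of the total it was 0.364%, 0.406% and 0.443% in the DRB libraries. In the Con libraries it was then 0.267%, 0.306% and 0.278%, so the groups were again apart. The HMGB class made up 68.2%, 79.8% and 68.8% of the 9 genes in the DRB libraries and 83.5%, 69.7% and 75.0% in the Con libraries, with overlap. The HMGN class made up 31.5%, 20.1% and 31.0% in the DRB libraries and 16.1%, 29.4% and 23.5% in the Con libraries, also with overlap.

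**Figure D3:**
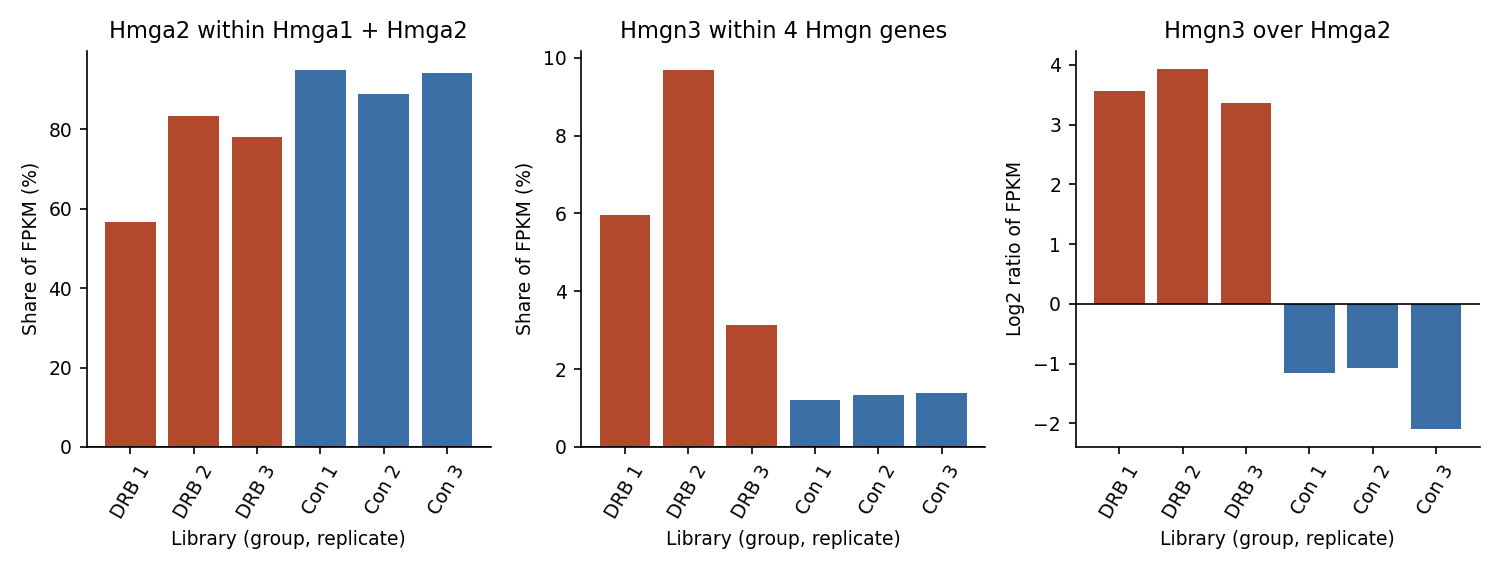
Values per library, DRB libraries left of Con libraries, for measures formed within a library: the log2 ratio of Hmgn3 to Hmga2, and shares of HMG transcripts in percent; each bar is 1 library. The log2 ratio lies between 3.37 and 3.94 in the DRB libraries and between −2.09 and −1.08 in the Con libraries.

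The fold changes of Hmga2 and Hmgn3 kept their direction under each of 13 other settings, which changed the pseudocount, the filter, the scaling, the set of libraries or the model. Hmgn3 lost its call under 1 of them, with no filter on low values, where 27554 genes were tested and its limma adjusted p was 0.123. Hmga2 lost its call under 8 of them, and its log2 fold change ranged from −2.48 to −1.76.

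**Figure D4:**
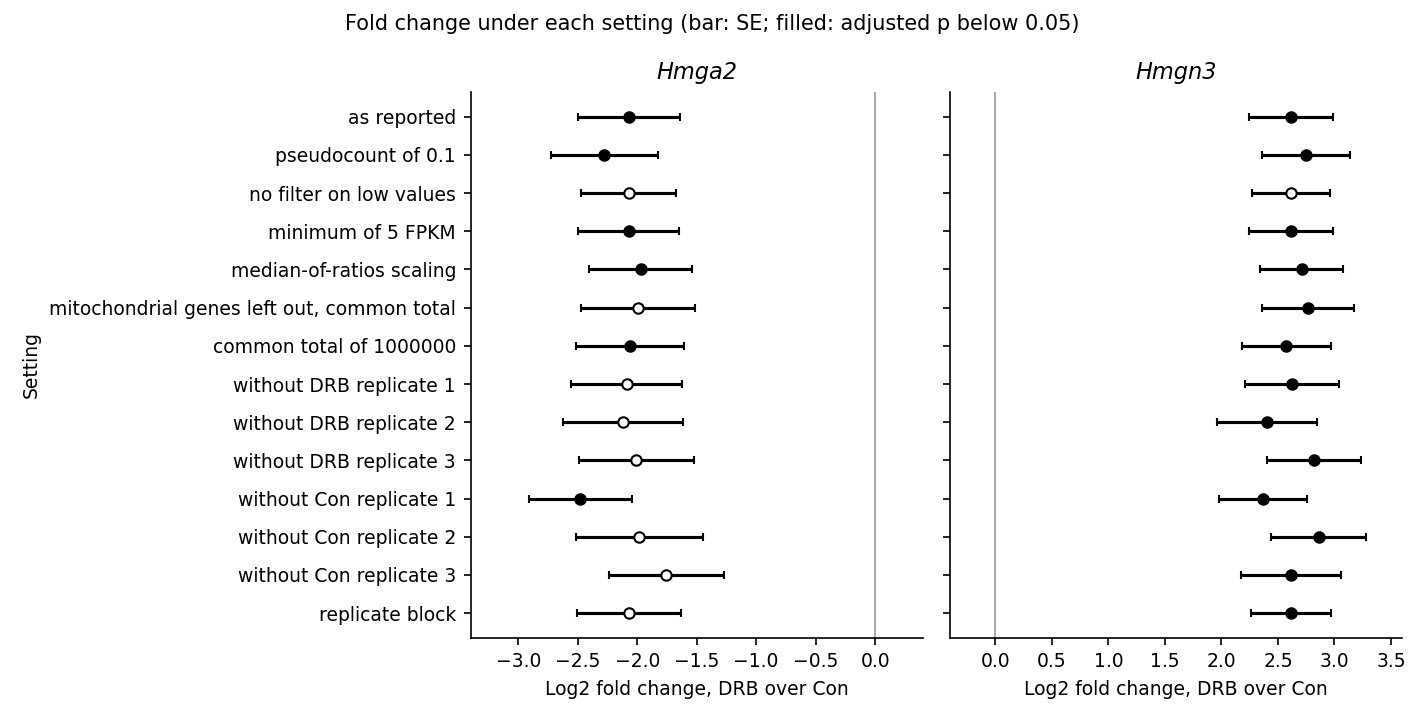
Log2 fold change of Hmga2 (left) and Hmgn3 (right), DRB over Con, under each setting (rows); points are estimates, bars SE, and filled points have an adjusted p below 0.05. Hmga2 stays between −2.48 and −1.76 with many open points, and Hmgn3 between 2.36 and 2.86 with 1 open point.

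Genes that work with HMG proteins were taken from 6 lists drawn from textbook knowledge, and none of their tested members was called by limma, where 2.48% of all genes tested were. Under an unadjusted p below 0.05 there were 2 of 4 linker histones, 2 of 4 members of the SET complex and 1 of 14 histone chaperones, against 18.1% of all genes tested, and 0 in the other 3 lists. Each list is given below by its tested members, its counts and its 2 most abundant members. Genes named beyond these were chosen after their values had been seen.

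Linker histones compete with HMGN proteins for nucleosomes, and 4 of the 9 listed were tested, 2 above 0 in log2 fold change and 2 below, with a median of 0.21. H1f0, the replacement linker histone of resting cells, had 32.0, 41.48 and 23.24 FPKM in the DRB group and 9.98, 15.03 and 7.63 FPKM in the Con group. Its DRB values all lay above its Con values, yet its log2 fold change of 1.49 ± 0.37 did not pass the adjusted test (limma adjusted p = 0.0624). It did pass with median-of-ratios scaling and with a minimum of 5 FPKM (limma adjusted p = 0.0443 and 0.0424), and not under the other 11 settings, where the limma adjusted p ranged up to 0.26. Hist1h1b had 6.22, 17.73 and 11.7 FPKM in the DRB group and 18.56, 5.00 and 19.46 FPKM in the Con group, with overlap. H1foo, the linker histone of the oocyte, had 2.21, 8.37 and 1.89 FPKM in the DRB group and 21.38, 9.13 and 7.02 FPKM in the Con group. DRB replicate 2 lay within the Con range, and the log2 fold change of −1.46 ± 0.56 did not pass (limma adjusted p = 0.198).

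The SET complex carries Hmgb2 together with the histone chaperone Set. All 4 of its tested members, of 5 listed, had a log2 fold change below 0, with a median of −0.60. Of all 11893 genes tested, 6659 were below 0, with a median of −0.09. The summed level of the 5 listed genes was 1280, 1447 and 1481 FPKM in the DRB group and 2385, 2064 and 1951 FPKM in the Con group. Set had 916.9, 962.4 and 929.9 FPKM in the DRB group and 1704, 1304 and 1346 FPKM in the Con group, with a log2 fold change of −0.62 ± 0.24 (limma adjusted p = 0.200). Nme1, a nucleoside diphosphate kinase of the complex, had 236.1, 325.1 and 423.4 FPKM in the DRB group and 427.0, 534.0 and 478.7 FPKM in the Con group. The groups did not overlap for either gene, a pattern that 13.9% of all genes tested showed with DRB lower. The highest DRB value of Nme1 nearly met its lowest Con value, and the limma adjusted p of Nme1 was 0.297. Anp32a, a phosphatase inhibitor of the complex, had 0.20, 5.77 and 1.12 FPKM in the DRB group and 6.23, 6.74 and 8.42 FPKM in the Con group, with a limma adjusted p of 0.17. It was called lower once DRB replicate 2, its highest DRB library, was left out (limma adjusted p = 0.0453). Under none of the other settings was it called, with limma adjusted p-values from 0.157 to 0.508. Apex1, the remaining tested member, had 126.5, 153.6 and 126.35 FPKM in the DRB group and 246.49, 218.41 and 117.68 FPKM in the Con group. Its groups overlapped (limma adjusted p = 0.490). Trex1, the exonuclease of the complex, did not exceed 0.52 FPKM in any library.

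**Figure D5:**
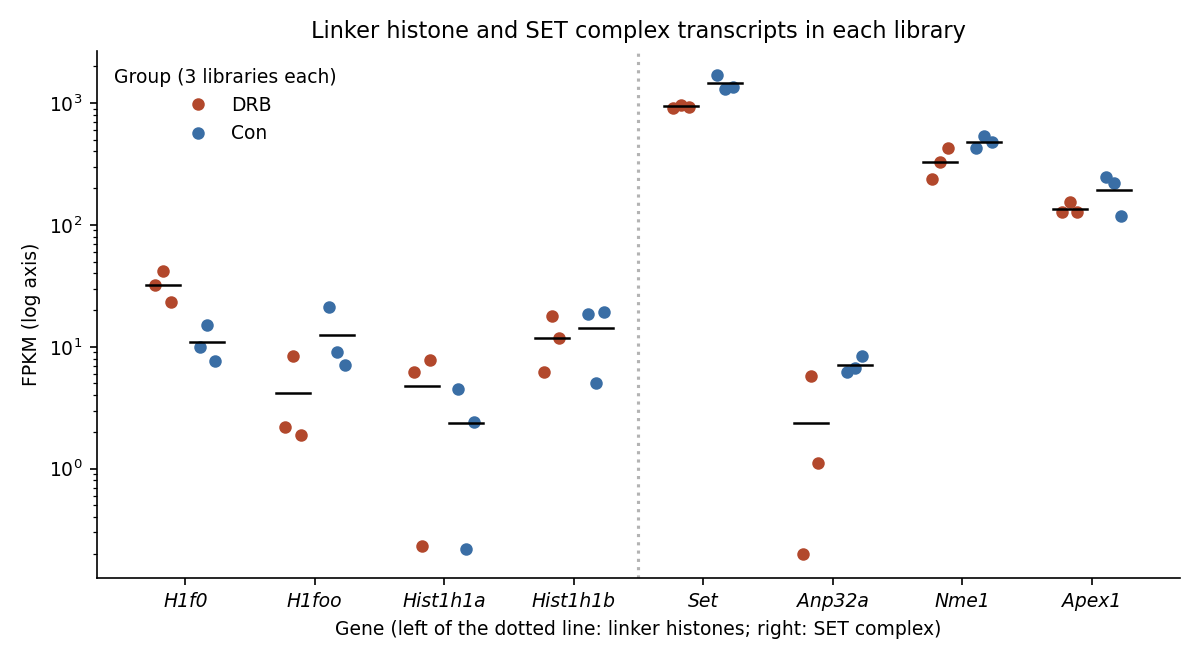
FPKM (log axis) of linker histone genes, left of the dotted line, and SET complex genes, right of it, in the 3 DRB and 3 Con libraries, DRB on the left of each pair; points are libraries and bars group means. Set lies between 916.9 and 962.4 FPKM in DRB and between 1304 and 1704 FPKM in Con, and H1f0 between 23.24 and 41.48 FPKM in DRB and between 7.63 and 15.03 FPKM in Con.

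The let-7 pathway, Lin28 and Igf2bp list holds genes around let-7 and Hmga2. Among them are genes that make let-7, block its maturation or bind the Hmga2 message. The 15 listed symbols name Tut4 and Tut7 under an older symbol as well. Of the 15, 13 were in the tables and 12 were tested, 5 above 0. Their median log2 fold change was −0.10, beside −0.09 over all genes tested. Dicer1, the enzyme that cuts microRNA precursors, had 48.48, 37.61 and 27.42 FPKM in the DRB group and 36.3, 23.81 and 33.75 FPKM in the Con group. Dgcr8, the partner of Drosha, had 16.45, 19.94 and 19.61 FPKM in the DRB group and 21.97, 35.97 and 17.54 FPKM in the Con group. Both overlapped between groups. The other 11 genes with at least 4 CTACCTC matches give a further comparison for the matches shown above. They include Igf2bp1, Lin28b and Trim71 of the list just given, so the comparisons share genes. Of the 11 genes, 8 were tested, 3 above 0 and 5 below. None was called by limma, none had an unadjusted p below 0.05, and the median log2 fold change was −0.25. Among them, Lin28b, which blocks let-7 maturation, had 4.82, 2.64 and 1.43 FPKM in the DRB group and 3.04, 2.85 and 3.08 FPKM in the Con group.

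Of 34 other HMG-box proteins, 20 were tested, 7 above 0, with a median log2 fold change of −0.25. Hbp1, a repressor of cell cycle genes, had 177.8, 209.9 and 178.9 FPKM in the DRB group and 184.4, 186.8 and 182.4 FPKM in the Con group. Sox15 had 76.73, 151.6 and 87.76 FPKM in the DRB group and 269.2, 152.7 and 103.0 FPKM in the Con group. Both overlapped between groups, and Hmgb4 and Sox17 were listed at 0 in all libraries. Of 15 histone chaperones, 14 were tested, 5 above 0, with a median log2 fold change of −0.10. Npm1, the nucleolar chaperone, had 3110, 3521 and 3091 FPKM in the DRB group and 3989, 3201 and 3300 FPKM in the Con group. Nap1l1, a chaperone of the H2A and H2B dimer, had 681.6, 629.4 and 585.9 FPKM in the DRB group and 393.1, 455.1 and 460.5 FPKM in the Con group. Its groups did not overlap, and the log2 fold change of 0.54 ± 0.23 did not pass the adjusted test (limma adjusted p = 0.255). Of 8 genes for HMGB1 receptors and export, 2 were tested, both above 0, with a median log2 fold change of 0.23. The exportin Xpo1 had 322.6, 300.3 and 229.9 FPKM in the DRB group and 194.3, 212.5 and 298.7 FPKM in the Con group, with overlap. Havcr2 did not exceed 1.57 FPKM in any library, and Ager, Tlr2, Tlr9 and Cxcl12 were listed at 0 in all of them.

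The genes with profiles most like that of Hmga2 were sought among the 3547 tested genes whose higher group averaged 20 FPKM or more, leaving out symbols that are Gm or RP followed by digits or that end in Rik. Likeness was the root mean square difference of log2(FPKM + 1) over the 6 libraries after each gene was centred on its own mean. The 5 nearest were Idh1 at 0.4, Cebpzos at 0.430, Gmcl1 at 0.435, Trip4 at 0.461 and Suclg1 at 0.462. Idh1, the cytosolic isocitrate dehydrogenase, had 5.94, 5.86 and 6.23 FPKM in the DRB group and 22.81, 26.13 and 25.49 FPKM in the Con group. Suclg1, a subunit of the succinyl-CoA ligase of mitochondria, had 7.57, 9.10 and 7.74 FPKM in the DRB group and 29.18, 28.65 and 29.61 FPKM in the Con group. Both lacked the wide spread of Hmga2 among Con libraries, whereas Cebpzos shared the low Con replicate 1, with 5.04, 8.09 and 6.96 FPKM in the DRB group and 8.28, 28.7 and 28.41 FPKM in the Con group. The same search for Hmgn3, added after its values had been seen, gave Fundc1 at 0.348, Rnf103 at 0.376, and AU019990, Pabpn1 and Sap30 at 0.464 each. Fundc1, a mitophagy receptor of the outer mitochondrial membrane, had 107.54, 93.52 and 42.03 FPKM in the DRB group and 11.66, 14.9 and 12.55 FPKM in the Con group.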

How the data were processed

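Libraries were trimmed with cutadapt 1.16 and aligned with STAR to mm10, as far as the submitters' processing notes name tools and a build. The sources used here name neither the program behind the expression values nor an annotation release. Per the file headers, the authors deposited FPKM, 1 table per library with 2 decimals. FPKM is a relative measure, so that more of one abundant transcript lowers the others.

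Genes with at least 1 FPKM in at least 3 libraries were tested with limma 3.58.1 (R 4.3.3) on log2(FPKM + 1), with a mean-variance trend and the group as the single term, two-sided, adjusted by Benjamini-Hochberg over all genes tested and called below 0.05. Each fold change sets DRB over Con and understates the change of low genes on this scale. The fit was tested on simulated data, where it recovered few of the smallest changes put in and most of the large ones, so a gene that was not called is not shown to be unchanged. Depth was estimated from steps in low FPKM values, of which 74.2% to 83.0% lay within 0.15 of a whole fragment, so fragment numbers are approximate. Whole counts were not rebuilt. Gene IDs were matched to GENCODE M21 (GRCm38, the assembly of mm10) without their version, 55154 of 55335. Same-numbered libraries did not deviate together (r from −0.051 to 0.053), so the numbers were not taken to pair them.

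The members, the lists and the tests were chosen with earlier results of these data known. Named were every member with its value in every library, members of each list that were called or else its 2 most abundant tested ones, pseudogene rows that reached 1 FPKM, and the 5 genes most like Hmga2 whose symbols are not Gm or RP followed by digits and do not end in Rik. Genes named outside this rule are said to be so. Promoters and microRNAs came from RefSeq (GRCm38.p6) and UTRs of at least 50 bases from GENCODE M21.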

Additional observations from a re-analysis of the deposited data

How the results depend on the processing

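Of 295 genes called (182 higher and 113 lower in DRB), a pseudocount of 0.1 gave 164 (113 and 51), no filter on low values gave 6 (6 and 0), an adjusted p below 0.01 gave 50 (43 and 7), and leaving out 1 library gave 47 to 220 (34 to 139 and 13 to 81), lowest without DRB replicate 1. The replicate block gave 171 genes (127 and 44) and left Hmga2 at an adjusted p of 0.0612 and Hmgn3 at 0.0137; the numbers were not shown to pair the samples. Leaving out mitochondrial genes and then scaling each library to a common total, 2 changes at once, gave 259 (187 and 72), and the median log2 fold change over all genes moved by 0.11. The common total alone, added after the data were seen, gave 287 (165 and 122). With both changes 72.2% of calls were higher, and with median-of-ratios scaling 72.6% (223 and 84), against 61.7% as reported. The number of members called was 0 with no filter, 1 without the mitochondrial genes and scaled, under the block and at 0.01, and 1 to 2 with 1 library left out. Of the related lists 1 gene (H1f0) was called at a minimum of 5 FPKM, 1 (H1f0) under median-of-ratios scaling and 0 to 1 (Anp32a) with 1 library left out, against 0 as reported. Hmga1, not tested at the minimum of 5 FPKM, changed sign without mitochondrial genes at a common total (0.029) and ranged from −0.44 to 0.22 with 1 library left out. Hmgn1 changed sign under median-of-ratios scaling (0.10) and without mitochondrial genes at a common total (0.13), and ranged from −0.14 to 0.14 with 1 library left out. The cause of these changes was not tested. Depth limits Hmga1 most. Fits for raw counts could not be run, since the files hold FPKM.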
